A study of Mus musculus with 2 samples.

Results

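The amino acid transporter families Slc1a, Slc3a, Slc7a, Slc36a, Slc38a and Slc43a were examined in Flk-1-positive early mesodermal cells made from mouse embryonic stem cells. A gene belonged to them when its symbol in the array's probe annotation was 1 of these 6 family names followed by a number. The rule gave 35 of 16444 named genes, each with 1 probe on the array, so no choice between probes had to be made. The genes were chosen by name, but the families themselves were selected on the log2 differences between these same 2 arrays, in which Slc7a3 and Slc1a4 were among the lowest genes. Their values are therefore a description and carry no test.

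The gene-trapped sample came from cells with both alleles of AU019823 disrupted by a gene trap, a cassette inserted into a gene to cut its transcript short. The revertant sample is labelled as almost identical to wild type at that gene. Both had been grown on OP9 cells, a mouse stromal line that favours blood formation, and sorted for Flk-1, the protein of the Kdr gene, and total RNA of 300000 gene-trapped and 350000 revertant cells was hybridised as Cy5-labelled amplified RNA. Each group has 1 array, and the 2 samples carry different codes (cl.3 gene-trapped, cl.4 revertant) that are not explained, so that a difference between cell clones and one of genotype cannot be told apart. The sample notes give day 4.5, while the protocol gives 4 days of coculture.

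AU019823 itself had a spot median of 297 on the gene-trapped array and 486 on the revertant array, a normalized log2 difference of -0.39. Where its probe lies relative to the trap is unknown, so this value does not check the labels. Kdr had a spot median of 537 on the gene-trapped array and 1025 on the revertant array (log2 difference -0.65, or -2.04 with the scanner's local background subtracted), and all 10 early mesoderm markers examined were above background on both arrays. Of these, 2 were 2-fold or more higher in gene-trapped cells and 0 lower, or 1 lower, Kdr, with the local background subtracted. Over all named genes above background on both arrays, 0.334% were that much higher and 1.08% lower. With the local background subtracted these shares were 2.04% and 1.35%. The summed spot medians of all 10 markers were 4633 on the gene-trapped and 3974 on the revertant array. The median spot over all probes was 38.6 on the gene-trapped array and 47.5 on the revertant array, so unnormalized spot medians lean towards the revertant array. Blank spots averaged 20.1 and 22.5 on the same arrays, and a probe was called above background past the blank mean plus 2 SD, that is 22.3 on the gene-trapped and 24.99 on the revertant array. A gene is called measured below where it was above background on both arrays.

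Amino acids cross the cell membrane through carriers that differ in substrate and in driving force. Slc1a proteins move glutamate or small neutral amino acids with sodium, and the cationic carriers of Slc7a bring in arginine and lysine. Most of the other Slc7a proteins are light chains that need a heavy chain of the Slc3a family to reach the membrane. Slc38a proteins take up glutamine and alanine with sodium, Slc36a proteins use protons, and Slc43a proteins include carriers of large neutral amino acids that need no partner. Many carrier genes are known targets of ATF4, a transcription factor made when amino acids run short or the endoplasmic reticulum is stressed, which binds with C/EBP proteins at an amino acid response element.

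RefSeq promoters (GRCm38.p6, 250 bases before to 50 after the annotated start) were listed for 24 of the 35 genes. The core of the amino acid response element, TGATGNAA on either strand, was found in 3 of these 24 genes (12.5%), against 350 of 9999 named genes of the array with a listed promoter (3.50%), both counted whether or not the gene was above background. The windows that hold it are printed with the core in capitals, each read 5′ to 3′ on the minus strand. They stand in genes with unlike log2 differences in the main setting, Slc1a4 among the lowest and Slc7a11 close to 0. Both Slc7a11 spots were near the background limits, where the offset of the normalization leaves little room for a difference. The authors' deposited table, which has no offset, gave Slc7a11 a log2 difference of -0.39. The Slc1a4 window is chr11:20332699-20332728, that of Slc7a11 is chr3:50443642-50443690, and those of Slc7a7 are chr14:54418067-54418096 (upstream) and chr14:54417927-54417956 (start).
Slc1a4: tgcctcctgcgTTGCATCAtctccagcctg
Slc7a11: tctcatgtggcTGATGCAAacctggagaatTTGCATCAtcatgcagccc
Slc7a7 upstream: ccgcttgggctTGATGAAAggttcactggg
Slc7a7 start: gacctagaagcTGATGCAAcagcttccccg

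The core in Slc1a4 begins 4 bases before the annotated start, those in Slc7a11 begin 66 and 47 bases before it on opposite strands, and those in Slc7a7 begin 141 bases and 1 base before 1 of the 5 starts listed for that gene, the second site lying 243 bases before another of them. The E-box CACGTG, a motif of another kind, was found in 5 of the same 24 genes (20.8%), Slc1a6, Slc1a7, Slc36a1, Slc38a5 and Slc43a1, against 1002 of the 9999 (10.02%). A match describes letters in the window and is not evidence of binding, and the windows of Slc3a2 and Slc38a2, which hold neither motif, say nothing of sites elsewhere in those genes. Slc7a3, Slc1a5 and Slc7a5 had no entry in the promoter table.

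Of the 35 genes, 27 were above background on both arrays, 3 on 1 array and 5 on neither. At a fixed size of 2-fold, 4 of the 27 (14.8%) were lower in gene-trapped cells and 0 were higher, whereas 1.08% of all 13753 named genes above background were lower by that much and 0.334% higher. Since results of this contrast were known when the families were chosen, nothing is read from the excess. The 4 lower genes were Slc7a3, Slc1a4, Slc1a5 and Slc1a6. Over the 27 genes the median log2 difference was -0.11, against 0.008 over all named genes, and 20 lay below 0 (74.1%, against 46.6% of all named genes) and 7 above it. The count below 0 was 15 with the arrays scaled to 1 median and 14 with them scaled to 1 75th percentile. With 1 array per group no difference has a replicate check. The spread that can be seen is technical: the positive control spots, 24 of each of 2 kinds, had SDs of the log2 difference of 0.107 and 0.0988. These SDs describe spots of 1 hybridisation per group before quantile normalization. The control spots were brighter than any member, with medians of 6503 and 19638 on the gene-trapped array. Their SDs say nothing of dim spots or of how separate cultures vary. As whole sorted populations were measured, fewer cells of a type and less RNA per cell cannot be told apart.

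**Figure D1:**
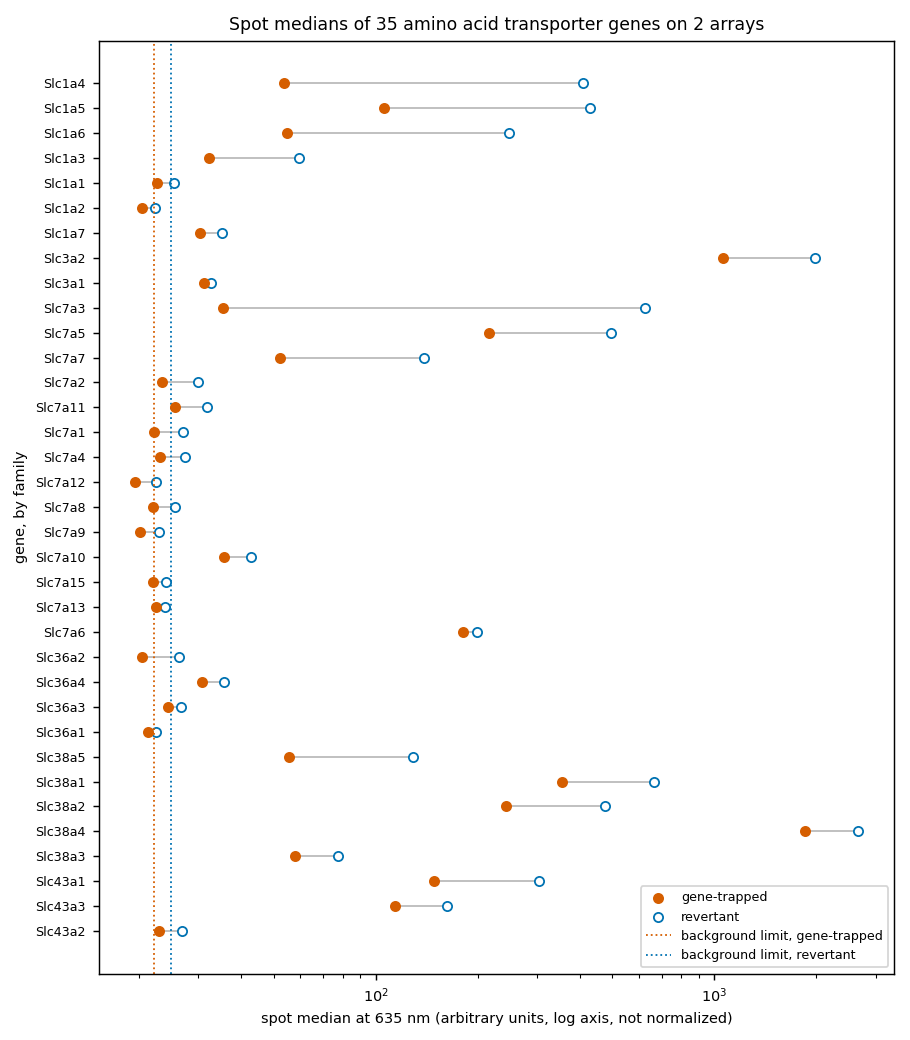
Spot medians of the 35 genes on a log axis, with gene-trapped as filled and revertant as open circles, ordered within each family by the normalized log2 difference, and dotted lines at the background limits of 22.3 (gene-trapped) and 24.99 (revertant). Values are not normalized between arrays. The widest gap is that of Slc7a3, with 35.5 on the gene-trapped and 622 on the revertant array, and many genes of Slc7a and Slc36a lie at the limits.

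The cationic carriers were described first, since they hold the lowest gene. Slc7a3, a carrier of arginine, lysine and ornithine, had a spot median of 35.5 on the gene-trapped array and 622 on the revertant array. After normalization its log2 signals were 6.14 in gene-trapped and 9.23 in revertant cells, a log2 difference of -3.09 (8.50-fold lower). That was the lowest difference of all 13753 named genes, and 0 of the 500 named genes closest to it in mean signal were as low. The gene-trapped spot stood only a little above its background limit, so the size of the fold rests on a dim spot. With the local background column of the scanner subtracted, the log2 difference turned to 0.11.

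The other cationic carriers and their relative gave no such gap. Slc7a1, the widely expressed carrier of the group, had a spot median of 22.3 on the gene-trapped array, at the background limit, and 27.1 on the revertant array (log2 difference -0.04). Slc7a2, an arginine carrier of liver and macrophages, had 23.5 on the gene-trapped and 29.9 on the revertant array (-0.06), and Slc7a4, a relative without a settled substrate, had 23.1 and 27.5 on the same arrays (-0.02). All 3 lay so near the blank level that the offset of the normalization leaves little room for a difference. In the authors' deposited table, which has no offset, Slc7a1 had a log2 difference of -0.72, Slc7a2 one of -0.76 and Slc7a4 one of -0.36, with values of at most 2.88 on the gene-trapped and 4.89 on the revertant array on a scale whose array median is 25.

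Both sodium-dependent exchangers of small neutral amino acids were lower. Slc1a4, which carries alanine, serine and cysteine, had a spot median of 53.8 on the gene-trapped array and 409 on the revertant array, a log2 difference of -2.12 (4.34-fold lower). It was the named gene of rank 9 from the lowest among 13753, and 2 of the 500 genes of closest signal were as low. Slc1a5, which carries glutamine and other neutral amino acids, had a spot median of 106 in gene-trapped and 429 in revertant cells, a log2 difference of -1.45 (2.74-fold lower, rank 41). Among its 500 neighbours in signal 5 were as low.

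Within the same protein family the glutamate and aspartate carriers differed in log2 difference and in brightness. Slc1a6, the glutamate carrier best known from Purkinje cells of the cerebellum, had a spot median of 54.9 on the gene-trapped array and 248 on the revertant array, a log2 difference of -1.42 (2.68-fold lower, rank 47). Slc1a3, the glial glutamate carrier, had 32.3 on the gene-trapped and 59.6 on the revertant array, a log2 difference of -0.34, and 24 of its 500 neighbours were as low. In the authors' deposited table Slc1a3 had a log2 difference of -1.22, so the gene is past 2-fold there and not in the main setting. Slc1a1, a neuronal and epithelial glutamate carrier, and Slc1a7, known from the retina, had log2 differences of 0.005 and 0.02 at spot medians of 22.6 and 30.4 on the gene-trapped array and 25.5 and 35.3 on the revertant array. Slc1a1 lay at the background limits and Slc1a7 was dim too, so the offset leaves both little room for a difference. In the authors' table, without an offset, Slc1a1 had 0.09 and Slc1a7 0.06. Slc1a2, the main glutamate carrier of forebrain astrocytes, was above background on neither array.

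Below the 2-fold size lay a band of genes between 1.5-fold and 2-fold lower. Together with the 4 above, 11 of 27 genes were at least 1.5-fold lower (40.7%) and 0 at least 1.5-fold higher. The 1.5-fold size was picked after the values had been seen, and 3.52% of all named genes passed it. All 11 genes also exceeded the stricter limit of the blank mean plus 5 SD on both arrays, which 21 of the 35 genes did. This is no separate check, as the offset shrinks the differences of spots near the limit. Of the 148 named genes at least 2-fold lower, 147 exceeded the stricter limit too. In the main setting a gap lay between this band and the rest. Slc43a1, Slc38a2 and Slc38a1 had -0.59, -0.59 and -0.60 and the next gene, Slc1a3, -0.34. The gap depends on the offset of the normalization, as Slc1a3 is dim. With an offset of 16, Slc1a3 came to -0.62, beside -0.65 for both Slc38a1 and Slc38a2, and in the authors' table it had -1.22. Of the 27 genes, 12 had log2 differences no larger than 0.1 in size, a range that also held 51.7% of all named genes.

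**Figure D2:**
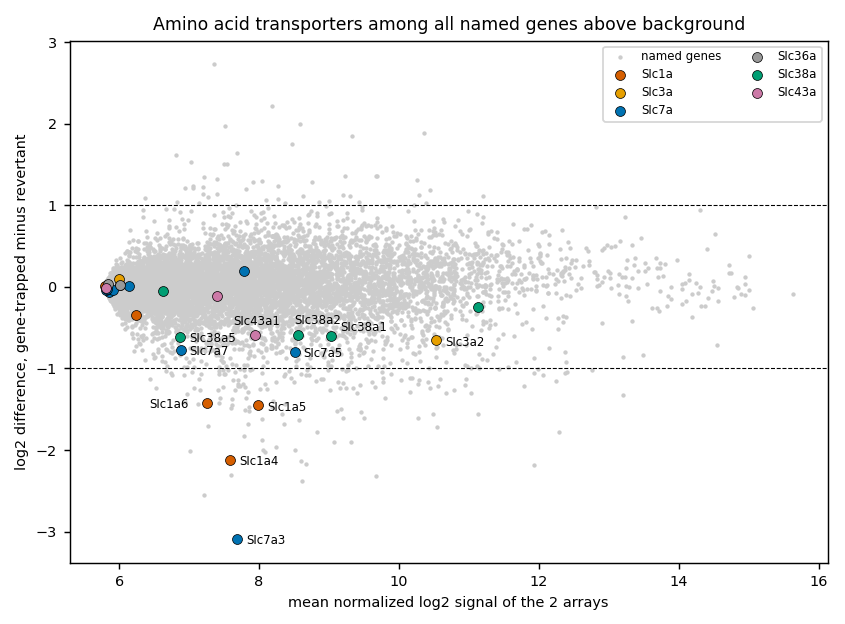
Log2 difference (gene-trapped minus revertant) against mean normalized log2 signal for all 13753 named genes above background (grey) and the 27 members (coloured by family), with dashed lines at 2-fold. Slc7a3 lies lowest of all genes at -3.09, and members of the lowest signal crowd around 0.

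The heavy chain and the light chain of the main carrier of large neutral amino acids lay in this band. Slc3a2, the heavy chain also called CD98, had a spot median of 1064 on the gene-trapped array and 1981 on the revertant array, a log2 difference of -0.65 (1.57-fold lower). Slc7a5, the light chain that brings in leucine and other large neutral amino acids in growing cells, had 217 on the gene-trapped and 496 on the revertant array, a log2 difference of -0.80 (1.74-fold lower). Of the 500 genes of closest signal, 41 were as low as Slc3a2 and 19 as low as Slc7a5, so neither was alone among genes of its brightness.

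The other partners of Slc3a2 did not share a direction. Slc7a7, an exchanger of cationic for neutral amino acids that is mutated in lysinuric protein intolerance, had a spot median of 52.1 on the gene-trapped array and 139 on the revertant array, a log2 difference of -0.77 (1.71-fold lower), with 5 of 500 neighbours as low. Its close relative Slc7a6, with a similar exchange activity, had 181 on the gene-trapped and 199 on the revertant array. Its log2 difference of 0.19 was the highest of all members, but 141 of 500 neighbours were as high. Its local background on the revertant array was 216, or 109% of the spot. The log2 difference of Slc7a6 was 0.77 with the local background subtracted and 0.03 with the arrays scaled to 1 median. The values of Slc7a10, a carrier of small neutral amino acids, were 35.8 in gene-trapped and 42.99 in revertant cells (0.01). For Slc7a11, the cystine and glutamate exchanger that feeds glutathione synthesis, they were 25.7 and 31.9 (-0.04), both near the background limits. Slc7a8, another light chain for neutral amino acids, was above background on the revertant array only, at 25.6, against 22.0 on the gene-trapped array, and its bound is at least 1.005-fold lower, which sets no size.

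Slc3a1, the heavy chain of the kidney and gut carrier of cystine and cationic amino acids, had a spot median of 31.3 on the gene-trapped array and 32.8 on the revertant array (log2 difference 0.09). Its light chain partner Slc7a9 was above background on neither array. The remaining genes grouped with the light chains were at the limit too: Slc7a12 and Slc7a15 were above background on neither array. Slc7a13 was so on the gene-trapped array only, at 22.5 against 23.9 on the revertant array, whose limit is higher. The bound of Slc7a13 is at least 1.01-fold higher in gene-trapped cells, which again sets no size.

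All 5 Slc38a genes named by the rule were below 0 in the main setting, and 3 lay in the 1.5-fold band. Slc38a1, a sodium-coupled carrier of glutamine and alanine, had a spot median of 354 on the gene-trapped array and 664 on the revertant array, a log2 difference of -0.60. The related carrier Slc38a2, which is known to respond to amino acid shortage, had 243 in gene-trapped and 475 in revertant cells (-0.59). Slc38a4, an imprinted carrier of neutral and cationic amino acids, had 1856 on the gene-trapped and 2659 on the revertant array, with a smaller log2 difference of -0.25. In the group that couples sodium uptake to proton export, Slc38a5 had 55.7 on the gene-trapped array and 129 on the revertant array (-0.61, 10 of 500 neighbours as low), and Slc38a3 had 57.8 and 77.7 on the same arrays (-0.05). The family thus held 3 genes near -0.60 and 2 nearer 0, and none past 2-fold in the main setting. The 2 nearer 0 did not keep their sign in every setting. Slc38a4 turned to 0.38 with the local background subtracted, and Slc38a3 to 0.01 with the arrays scaled to 1 75th percentile.

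The Slc43a carriers differed from each other as well. Slc43a1, a carrier of leucine and other large neutral amino acids, had a spot median of 148 on the gene-trapped array and 304 on the revertant array, a log2 difference of -0.59 (1.51-fold lower). Slc43a2, with a like substrate range, lay at the limit with 22.9 on the gene-trapped and 26.8 on the revertant array (-0.01), and Slc43a3, which carries purine bases and not amino acids, had 114 and 162 (-0.11). Among the proton-coupled Slc36a carriers no gene gave a measurable difference in the main setting. Slc36a3 and Slc36a4 had log2 differences of 0.03 and 0.02 at spot medians of 24.4 and 30.7 on the gene-trapped array and 26.6 and 35.6 on the revertant array. Slc36a1, a carrier of lysosomes and gut, was above background on neither array, and Slc36a2, known from kidney, was so on the revertant array only, with a bound of at least 1.015-fold lower.

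By family, the count of genes at least 2-fold lower was 3 of 6 measured above background on both arrays in Slc1a (median log2 difference -0.88), 1 of 9 in Slc7a (-0.04), 0 of 2 in Slc3a (-0.28), 0 of 5 in Slc38a (-0.59), 0 of 3 in Slc43a (-0.11) and 0 of 2 in Slc36a (0.03). By substrate, both exchangers of small neutral amino acids were lower, as was 1 of 4 measured glutamate and aspartate carriers and 1 of 4 cationic carriers, and no measured gene of the other substrate groups was past 2-fold in the main setting. Over all named genes above background, 1.08% were lower by that much. With the local background subtracted, the count was 1 of 6 in Slc1a and 0 of 9 in Slc7a. It was then 0 of 2 for the small neutral exchangers, 0 of 4 for the cationic carriers and still 1 of 4 for the glutamate and aspartate carriers. The families also differed in how many of their probes were bright: 5 of 7 genes in Slc1a and 5 of 5 in Slc38a passed the stricter limit, but 6 of 14 in Slc7a and 1 of 4 in Slc36a.

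The spots of several of these genes lay in bright local background, and the scanner's local background column bears on their size. On the revertant array that column held 634 beside the Slc7a3 spot of 622, or 102% of the spot, against 59.4% for the median of the 500 genes of closest signal, and 7 of the 500 had as high a share. On the gene-trapped array it held 30.7, or 86.7% of the spot. The share was 83.1% on the gene-trapped and 77.7% on the revertant array for Slc1a4, 74.1% and 73.2% for Slc1a5, but 48.2% and 39.5% for Slc1a6. With this column subtracted, Slc7a3 turned to 0.11, Slc1a4 came to -0.94, Slc1a5 to -0.90 and Slc1a6 to -1.15. The column follows spot brightness over the whole array, with correlations across probes of the log2 values of 0.956 (gene-trapped) and 0.975 (revertant). Whether it holds signal of the spot itself was not tested. The spots next to Slc7a3 on the slide were dim, with a median of 21.9 on the gene-trapped and 24.3 on the revertant array over 8 adjacent spots.

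**Figure D3:**
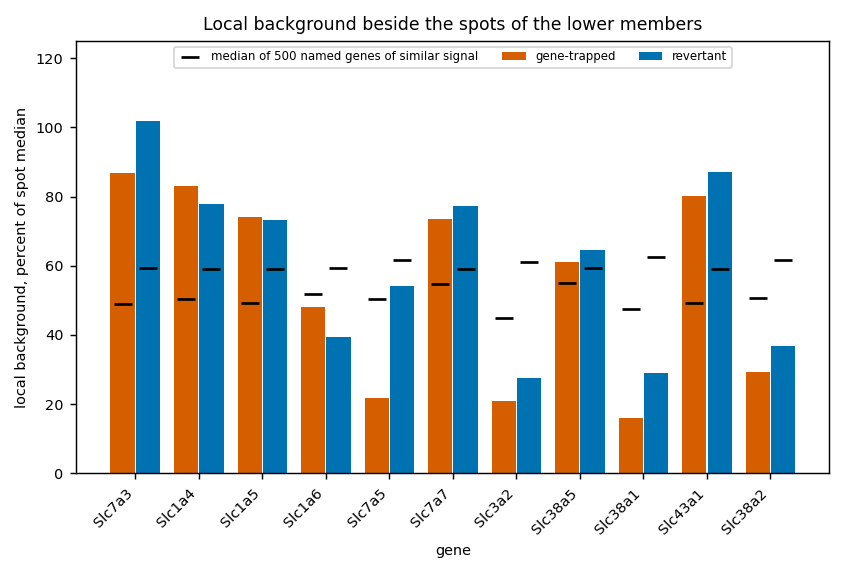
Local background as a percent of the spot median for the 11 genes at least 1.5-fold lower, gene-trapped (left bars) and revertant (right bars), with black marks at the median of 500 named genes of similar signal. Slc7a3 reaches 102% on the revertant array, while Slc3a2, Slc38a1 and Slc38a2 reach at most 36.7%.

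In contrast, Slc3a2, Slc38a1 and Slc38a2 had shares of 21.0%, 16.04% and 29.2% on the gene-trapped array and 27.6%, 28.9% and 36.7% on the revertant array. Their log2 differences were -0.83, -0.71 and -0.73 with the column subtracted, all a little larger in size than in the main setting. Slc7a5 came to -0.41, Slc7a7 to -0.21, Slc38a5 to -0.29 and Slc43a1 to -0.11 in that setting. Of the 11 genes, 6 were still at least 1.5-fold lower in that setting, namely Slc1a4, Slc1a5, Slc1a6, Slc3a2, Slc38a1 and Slc38a2, and Slc7a3 changed sign.

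**Figure D4:**
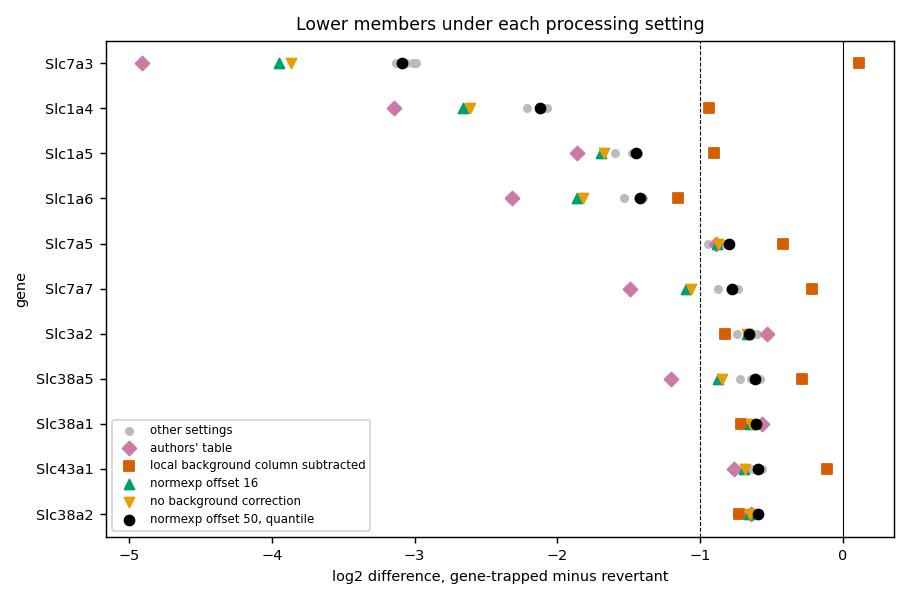
Log2 differences (gene-trapped minus revertant) of the 11 genes at least 1.5-fold lower under each processing setting, with a dashed line at 2-fold. The authors' table gives the most negative value for Slc7a3 (-4.91), and subtraction of the local background moves Slc7a3 to 0.11 but leaves Slc1a6 past 2-fold at -1.15.

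The authors' deposited table of processed values gave larger differences for dim spots, in both directions. In it Slc7a3 had 13.1 in gene-trapped and 394 in revertant cells (30.1-fold lower), Slc1a4 had 28.8 and 254 (8.83-fold) and Slc1a6 had 29.7 and 148 (4.98-fold). Of 28 members with a value in both columns, 7 were at least 2-fold lower there, since Slc7a7 (-1.49), Slc1a3 (-1.22) and Slc38a5 (-1.20) joined the 4 genes above. Of all named genes with both values, 4.02% were at least 2-fold lower there and 2.01% at least 2-fold higher. While 22 of the 28 members lay below 0 there, Slc3a1 had 0.49 and Slc36a3 0.41, against 0.09 and 0.03 in the main setting.

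Other genes of amino acid supply were set beside the families. Among 20 measured amino acid carriers outside the 6 families 1 was at least 2-fold lower and 0 were higher, with a median of -0.02. The gene was Slc6a9, a glycine carrier, with a spot median of 91.8 on the gene-trapped array and 399 on the revertant array (log2 difference -1.52). The taurine carrier Slc6a6 had -0.65 and Slc25a13, the mitochondrial aspartate and glutamate carrier, 0.55. Of all 194 other Slc genes above background, which include some of these 20, 4 were at least 2-fold lower (2.06%) and 1 higher, and 7.22% were at least 1.5-fold lower.

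The list of ATF4 and its pathway had 6 of 20 measured genes at least 2-fold lower, 0 higher and a median of -0.51. Trib3, a pseudokinase induced by ATF4, had a spot median of 49.5 on the gene-trapped array and 440 on the revertant array (log2 difference -2.30), the secreted protein gene Stc2 had 29.6 and 257 (-2.02), and the stress transcription factor gene Ddit3 had 219 and 1094 (-1.90). Enzymes of amino acid synthesis and breakdown had 7 of 20 at least 2-fold lower, 0 higher and a median of -0.33, led by the serine enzyme gene Psph (-1.90), the proline enzyme gene Aldh18a1 (-1.43) and the mitochondrial folate enzyme gene Mthfd2 (-1.21). Genes of amino acid sensing by mTORC1 had 0 of 28 past 2-fold in either direction and a median of -0.02. The leucyl-tRNA synthetase gene Lars had -0.78, which turned to 1.52 with the local background subtracted. A730024A03Rik, now Fnip1, a partner of folliculin, had -0.45, and Rheb, the activator of mTORC1, had -0.43 (0.11 with the local background subtracted). Counts with that column subtracted, here and for cell type markers, and the genes named with them were added after the values had been seen. They were 3 of 20 lower for the ATF4 list, where Stc2 came to -0.90 and the asparagine synthetase gene Asns to -0.02, against -1.55 in the main setting. For the enzymes they were 6 of 20 lower and 2 higher, the serine synthesis gene Psat1 (2.10) and the aminotransferase gene Got2 (1.12). For mTORC1 sensing 3 of 28 were then higher, Lars, 0910001L09Rik (now Lamtor4, 1.03) and Sec13l1 (now Sec13, 1.03), and for the carriers outside the 6 families 1 was lower and 1 higher. Over all 13753 named genes, 2.04% were at least 2-fold higher in that setting and 1.35% lower. In the main setting these shares were 0.334% and 1.08%. All these lists share the same 2 arrays with the transporters, so their values are not independent of them.

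**Figure D5:**
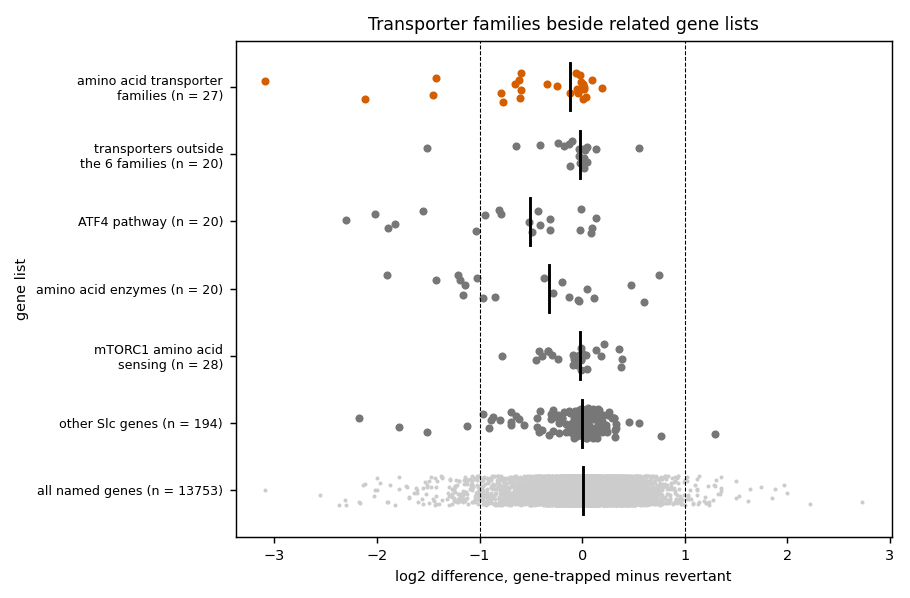
Log2 differences (gene-trapped minus revertant) of genes above background on both arrays in the transporter families (27 genes), 4 related lists, other Slc genes and all named genes, with black bars at the medians and dashed lines at 2-fold. Transporters, ATF4 pathway genes and amino acid enzymes have tails past 2-fold on the lower side, and the mTORC1 list has none in the main setting.

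Markers of other cell types moved between the arrays as well. Of 11 measured OP9 stromal and fibroblast markers 3 were lower by 2-fold or more, and the summed spot medians of the 12 on the array were 2068 on the gene-trapped and 5845 on the revertant array, with Dcn not above background. Acta2 gave most of these sums, with 1195 and 3603 on the same arrays. Of the 11 log2 differences, 7 lay below 0 and 4 above it. Endothelial markers had 3 of 7 lower (summed spot medians 1354 and 3339 on the same arrays, Cdh5 not above background on both), cardiac markers 2 of 5 lower (1237 and 2724) and blood markers 0 of 6 (213 and 432, Ptprc above background on neither). Pluripotency markers had 2 of 5 at least 2-fold higher, Tdgf1 and Dppa5 (2579 on the gene-trapped and 983 on the revertant array). Most of these sums came from Tdgf1, with 2249 and 707 on the same arrays. Nanog, Zfp42 and Esrrb had log2 differences of 0.03, 0.12 and 0.07. Of endoderm markers Afp, Ttr, Cer1 and Apoa1 were above background on neither array, and 0 of 2 measured ones were past 2-fold (137 and 158). Neuroectoderm markers had 1 of 4 higher (513 and 356) and macrophage markers 0 of 3 past 2-fold (188 and 234). With the local background subtracted, 1 cardiac marker (Tnnt2), 2 endothelial and 3 stromal markers were lower by 2-fold or more, and 1 pluripotency marker (Tdgf1) and 0 neuroectoderm markers were higher. Over all named genes, 1.35% were then lower by 2-fold or more and 2.04% higher. In that setting Tnni1 came to 0.15, Pecam1 to -0.95 and Dppa5 to -0.08. The part of these cell types in the transporter values was not tested.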

How the data were processed

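RNA was measured on 2 one-colour arrays, 1 per group. Per the file headers, each deposited scanner file gives a linear intensity per spot (the median at 635 nm, joined by least squares from 3 gains) and a local background median; no scanner or software is named there. The authors also deposited a table of linear intensity values, which falls on a straight line against the spot medians, runs in the same direction, reaches 0 near the blank mean and has a median of 25 per column; why some cells are empty is unknown.

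Spot medians, with the local background column not subtracted, were corrected with limma's normexp (limma 3.58.1, R 4.3.3, offset 50) on all spots. They were then quantile-normalized and put on the log2 scale. The offset shrinks differences of dim genes. Of 23473 probes, the 2 that carry a quality flag were dropped, 16629 have 1 gene symbol and 6842 none. All 35 members have current symbols in RefSeq (GRCm38.p6), and some list genes were found through its synonyms. A gene above background on 1 array has a bound, its brighter normalized signal over the higher of the dim spot's own signal and the lowest signal above background on that array. The steps were tested on simulated data, and tables were made with Python 3.11.15.

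The members, lists, the 2-fold size, the alternatives and the naming rule were chosen with earlier results of these data known. The rule named AU019823, Kdr, members past 2-fold, the highest and lowest of each family, members above background on 1 array, Slc3a2 and its light chains, and the 3 largest differences of each related list. Protein sequences were not used here.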

Additional observations from a re-analysis of the deposited data

Results flagged for a closer look

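Local background values stayed outside the main setting. Beside the spot of Slc7a3 the value was 30.7 on the gene-trapped array and 633.8 on the revertant array, while its median at blank spots was 15.6 on the gene-trapped and 14.2 on the revertant array. It was listed because of its height over blank spots.

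Genes of the same families that the array lists under older names stand outside the members and gave signal too. Of 42 such genes in RefSeq, 4 more were found that way. The probe of 9130023D20Rik, now Slc38a9, a lysosomal carrier that senses arginine, had a spot median of 49.7 on the gene-trapped and 96.1 on the revertant array (log2 difference -0.42). That of 1810073N04Rik, now Slc38a10, had 56.2 on the gene-trapped and 86.1 on the revertant array (-0.18). 9330158F14Rik, now Slc38a11, had a log2 difference of -0.026, and Gm587, now Slc38a8, one of 0.0093, both near the background limit.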

How the results depend on the processing

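No paired analysis was possible because the gene-trapped and revertant groups hold 1 array each. The 4 genes at least 2-fold lower were the same under median and 75th percentile scaling, cyclic loess and correction for spot position. Slc7a7 joined them with offset 16 (-1.10) and with no background correction (-1.07). The same 4 also stood with no filter, with a stricter filter and with probes averaged per gene. Those settings do not check the size of the 4 differences. A filter only decides which genes are kept, and averaging cannot move a member, as each has 1 probe. Subtraction of the local background left 1, Slc1a6 at -1.15, and Slc7a3 turned to 0.11, Slc1a4 came to -0.94 and Slc1a5 to -0.90; the authors' table gave 7. None of the 11 settings had a member 2-fold higher. Over all named genes the main counts were 148 lower and 46 higher. They were 238 and 87 with offset 16, 227 and 84 with no background correction, 185 and 280 with the local background subtracted, and 571 and 285 in the authors' table. The median of -0.11 was -0.26 under median scaling, -0.59 over the 21 genes of the stricter filter and -0.46 in the authors' table, but -0.03 with the local background subtracted and -0.04 with no filter, and the members' mean was -0.49. Scaling to the 75th percentile moved the median of all genes to 0.15 and that of the members to -0.12. Genes at least 1.5-fold lower numbered 6 with the local background subtracted and 9 to 12 in the other settings, and 2.95% to 10.9% of all named genes were that low. The stricter filter and the smaller offset act on dim genes by construction; otherwise the cause was not tested. With the local background subtracted, an alternative added for the lists after seeing the data, ATF4 pathway genes lower by 2-fold numbered 3 in place of 6. Higher genes numbered 3 for mTORC1 sensing, 2 for amino acid enzymes and 1 for other amino acid carriers, each in place of 0. Low signal limits the genes other than the 21 of 35 that passed the stricter limit on both arrays.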

Other observations

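Outside the amino acid carriers, the other Slc genes past 2-fold were mainly carriers of sugar and lactate, named here after their values were seen. Slc2a3 and Slc2a1, glucose carriers, had spot medians of 1659 and 2383 on the gene-trapped array and 9453 and 10678 on the revertant array, log2 differences of -2.18 and -1.78. Slc16a3, a lactate carrier, had 921 on the gene-trapped and 2460 on the revertant array, a log2 difference of -1.12 that turned to 2.17 with the local background subtracted. Slc19a2, a thiamine carrier, was the 1 other Slc gene at least 2-fold higher, with 341 on the gene-trapped and 154 on the revertant array (1.30).

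Among the named genes lower by 2-fold or more, 104 had a listed promoter, and 14 of these (13.5%) held the amino acid response core, against 3.50% of the named genes of the array with one, whether above background or not. Slc1a4 is among the 14. For the E-box the shares were 13 of 104 (12.5%) and 10.02%. These shares were looked at after the calls were known and are given as counts without a test.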
